A study of Mus musculus with 20 samples.

Results

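The immediate early genes described here are Fos, Fosb, Junb, Egr1, Egr2, Arc, Npas4, Nr4a1, Ier2 and Dusp1, 10 of the 22180 genes measured. They were chosen by name, as genes whose transcripts appear within minutes of a stimulus, and with earlier results of these data known. Total RNA from the striatum of 20 mice was hybridised to Affymetrix Mouse Gene 2.0 ST arrays, which read many exons of each transcript with short probes, with 1 mouse per array and 5 mice in each of 4 groups. ASO mice carry human wild-type α-synuclein under the PDGF-β promoter (line D), and WT mice are their littermates, all on a C57B6/J background and labelled 12 months of age. ASO-NSC and WT-NSC mice had been injected in the striatum with GFP-expressing mouse neural stem cells (NSCs) taken from newborn hippocampus and cortex and expanded in culture. ASO-Veh and WT-Veh mice had been injected with saline. All had passed through memory and motor tests before they were perfused, and the interval between the last test and sacrifice is not given in the sources used here. The transgene itself was not analysed here, and the promoter is not specific to the striatum.

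Immediate early genes are switched on in neurons by calcium and growth factor signals through transcription factors that are already present, chiefly CREB, which binds the cAMP response element, and serum response factor, which binds the CArG box. Fos, Fosb, Junb, Egr1, Egr2, Npas4 and Nr4a1 encode transcription factors, Arc encodes a synaptic protein that removes glutamate receptors from the membrane, and Dusp1 encodes a phosphatase that shuts off MAP kinases. In the striatum these genes respond to dopamine and to glutamate from the cortex, chiefly in the spiny projection neurons.

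Promoter sequences are shown because the levels of these genes moved together across the mice, as described further on, and because both elements are short runs of letters that can be looked for. The 250 bases before the RefSeq start (GRCm38.p6) were searched on both strands for the cAMP response element (TGACGTCA), its shorter core (TGACG), the CArG box, an EGR site (GCGGGGGCG or GCGTGGGCG) and an AP-1 site (TGAGTCA). Each full element also holds the core on both strands. Capitals mark the cAMP response element, its core and the CArG box, written as they stand on the strand of the gene, 5′ to 3′.
Dusp1 promoter, chr17:26508473-26508722 (minus strand): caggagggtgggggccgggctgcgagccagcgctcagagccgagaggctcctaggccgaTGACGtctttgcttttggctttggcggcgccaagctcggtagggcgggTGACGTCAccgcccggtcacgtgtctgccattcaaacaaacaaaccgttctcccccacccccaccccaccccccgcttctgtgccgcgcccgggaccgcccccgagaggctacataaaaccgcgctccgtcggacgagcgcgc
Fos promoter, chr12:85473640-85473889 (plus strand): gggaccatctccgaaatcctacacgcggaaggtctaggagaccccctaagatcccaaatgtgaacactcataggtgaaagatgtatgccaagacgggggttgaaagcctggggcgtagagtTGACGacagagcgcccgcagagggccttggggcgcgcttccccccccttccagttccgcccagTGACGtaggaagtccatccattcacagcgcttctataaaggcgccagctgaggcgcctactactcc
Junb promoter, chr8:84978749-84978998 (minus strand): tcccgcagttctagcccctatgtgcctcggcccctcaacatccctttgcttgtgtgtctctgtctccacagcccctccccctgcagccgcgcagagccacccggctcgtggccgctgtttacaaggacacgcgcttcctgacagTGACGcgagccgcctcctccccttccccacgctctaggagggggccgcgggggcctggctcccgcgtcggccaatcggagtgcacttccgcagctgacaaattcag
Npas4 promoter, chr19:4989972-4990221 (minus strand): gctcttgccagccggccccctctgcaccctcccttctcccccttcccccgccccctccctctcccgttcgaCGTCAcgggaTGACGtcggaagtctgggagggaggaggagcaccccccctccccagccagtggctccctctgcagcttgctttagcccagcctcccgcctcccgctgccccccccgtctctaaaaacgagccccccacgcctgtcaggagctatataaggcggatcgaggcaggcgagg
Nr4a1 promoter, chr15:101266596-101266845 (plus strand): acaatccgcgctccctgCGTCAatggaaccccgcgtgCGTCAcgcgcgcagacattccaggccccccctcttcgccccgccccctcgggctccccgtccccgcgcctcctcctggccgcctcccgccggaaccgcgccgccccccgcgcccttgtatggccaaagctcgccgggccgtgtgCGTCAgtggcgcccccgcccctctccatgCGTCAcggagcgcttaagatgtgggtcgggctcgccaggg
Egr2 promoter stretch, chr10:67537793-67537820 (plus strand): cagtCCATATATGGgcagcgaCGTCAcg
Fosb promoter stretch, chr7:19310087-19310110 (minus strand): gcgggTGACGcaagcgcgggggcg

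The core was present in the promoters of all 7 of the members searched (in Egr2, at starts 3 to 5 of its 5 annotated starts), against 17.8% of 32851 promoters. The full element was found in 1 of the 7, Dusp1 (-143 to -136 from the start), against 1.55% of promoters. Of the 7, only Egr2 held the CArG box (-72 to -63 from start 3, and also upstream of starts 2, 4 and 5), against 1.47% of promoters. GCGGGGGCG lay at -50 to -42 in Fosb, and Nr4a1 held the same letters on the other strand at -60 to -52, against 3.06% of promoters for both EGR forms. No AP-1 letters were found in the 7, against 4.46% of promoters. Egr1, Arc and Ier2 were not searched. Of the 3 other genes whose levels were most like those of the 10, Nr4a3 held the core at 4 places, and Fosl2 and Dusp6 held it nowhere in this window. A match of letters is a description and not a bound site.

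Each of the 10 genes was read by 1 probe set, so no choice among probe sets entered. RMA, the authors' procedure, gives a log2 intensity on a scale where probe sets differ in brightness, so levels are compared between mice and not between genes. Over the 20 mice, the mean intensity ran from 4.95 log2 units for Ier2, at percentile 20.3 of all genes, to 9.73 for Arc, at percentile 92.4. Ier2, a nuclear regulator of growth-factor responses, was thus among the dimmer genes.

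The 10 genes varied more among mice of 1 group than most genes did. The SD within groups was 0.39 log2 units for Nr4a1, an orphan nuclear receptor, which placed it at percentile 98.8 of all genes. Fos was at percentile 96.0 with an SD of 0.29, and Npas4 at percentile 95.3 with 0.28. Of the 10 genes, 9 lay above percentile 80, and Ier2 was the exception. The median SD of the 10 genes was 0.23 log2 units, against 0.14 over all genes. Nr4a1 spanned 1.93 log2 units, 3.81-fold, between the lowest and the highest of the 20 mice, and Npas4 spanned 2.91-fold.

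Sex and litter differed between the groups, and their values stand here since they touch every comparison. The sex-linked genes differed from the labelled sex in 5 of the 20 arrays (ASO-Veh mice 45 and 47, 54 of the WT-NSC mice, and 61 and 62 of the WT-Veh mice), so that 13 mice read as female and 7 as male. NSC mice came from litters 3, 4 and 6 and vehicle mice from litters 1, 3 and 5. Both treatments thus met in litter 3 alone, where each was in another genotype, so graft and litter can hardly be told apart. Each litter held both genotypes. RNA integrity numbers lay between 9.2 and 9.7. ASO-NSC mouse 59, which the study left out as an outlier, is included in the values of single mice and left out of limma, the linear model across all genes with group and labelled sex as terms. It had the lowest mean of 9 spiny projection neuron markers, 10.20 log2 units, and the other 19 mice lay between 10.68 and 11.29, so that the striatal markers were bright in all arrays.

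**Figure D1:**
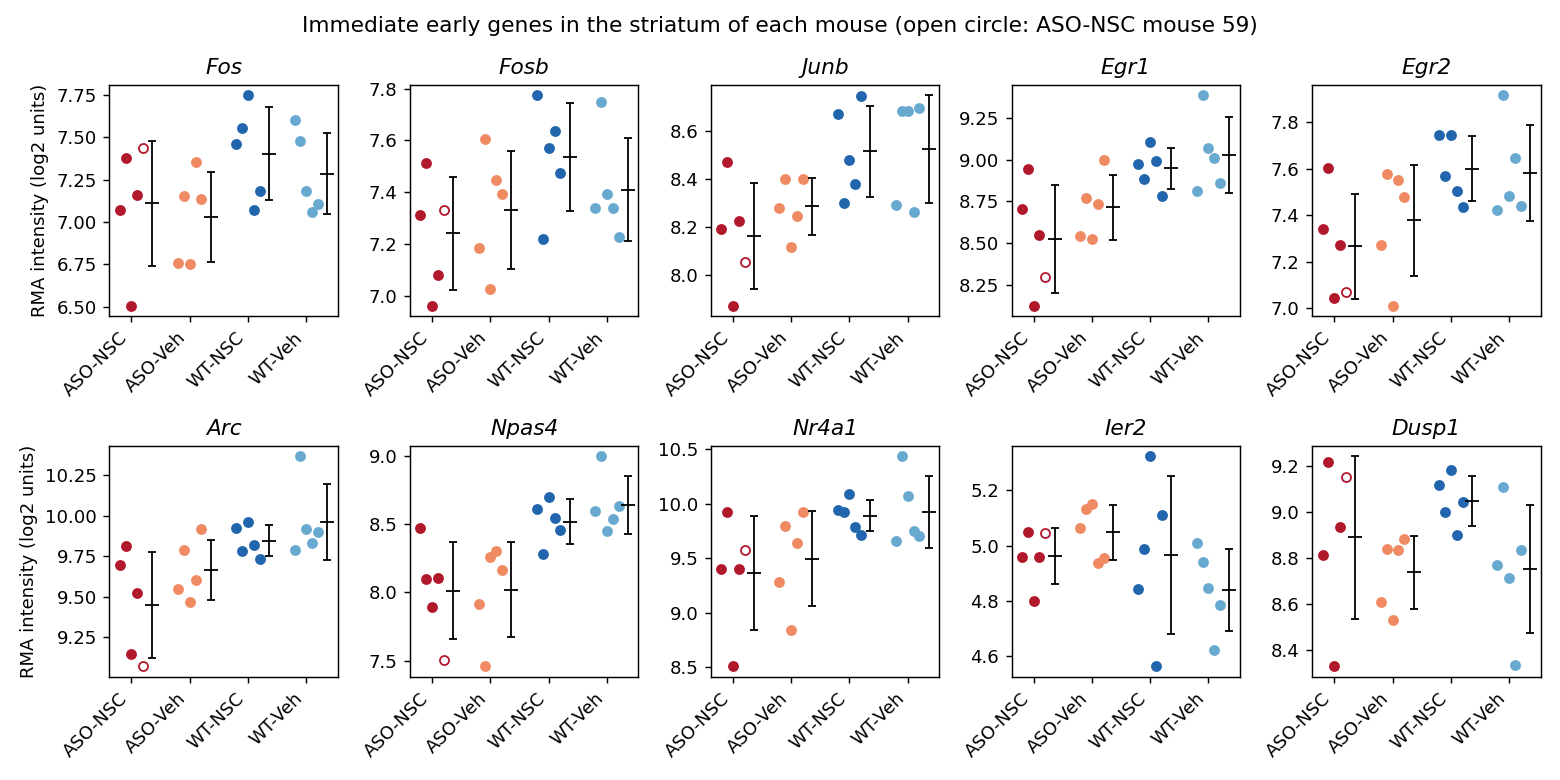
Log2 RMA intensity (y axis) of the 10 immediate early genes in each of the 20 mice, in the groups ASO-NSC, ASO-Veh, WT-NSC and WT-Veh (x axis). Points are mice, the open circle is ASO-NSC mouse 59, and bars are the mean and SD of 5 mice. In Npas4 and Egr1, 8 of the 10 ASO mice lie below every WT mouse, while Ier2 and Dusp1 overlap fully or almost fully.

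The genotype comparison asked whether striata over-expressing α-synuclein differ from WT striata, over both treatments. Of the 10 genes, 9 had lower mean levels in ASO than in WT mice, with a median difference of -0.29 log2 units, against -0.01 over all genes, of which 53.9% were lower. None passed limma's test at an adjusted p under 0.05 (Benjamini-Hochberg over 22180 genes), which called 0.00902% of all genes. At an unadjusted p under 0.05, 7 of the 10 were lower, against 2.34% of all genes, and none was higher, against 1.68%. The 10 were chosen with earlier results known and varied together, so such counts are descriptions and no independent test. In bulk tissue, fewer cells of a type and less RNA per cell cannot be told apart.

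Npas4, a transcription factor that is induced by neuronal activity almost alone and that promotes inhibitory synapses, had the smallest p of the 10 for genotype. It measured 8.47, 8.10, 7.89, 8.10 and 7.50 log2 units in ASO-NSC mice 73, 75, 56, 57 and 59, and 7.91, 7.46, 8.26, 8.30 and 8.17 in ASO-Veh mice 42, 45, 46, 47 and 68. The WT-NSC mice 53, 70, 74, 54 and 58 had 8.61, 8.28, 8.70, 8.54 and 8.46, and the WT-Veh mice 61, 62, 64, 66 and 67 had 8.59, 8.999, 8.45, 8.54 and 8.63. All 5 ASO-Veh mice lay below all 5 WT-Veh mice, a separation that 0.469% of all genes showed in this direction and 0.275% in the other. Between ASO-NSC and WT-NSC mice none of the 10 genes was so separated, against 0.352% of all genes below and 0.361% above, and 4 of 5 ASO-NSC mice lay below every WT-NSC mouse in Npas4. The difference between ASO and WT mice was -0.51 log2 units, a ratio of 0.704 (SE 0.11, 95% interval -0.73 to -0.28, limma's adjusted p = 0.615). Its unadjusted p of 0.000139 did not pass the correction over all genes.

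Egr1, a zinc-finger factor that follows synaptic activity, measured 8.71, 8.94, 8.13, 8.55 and 8.30 log2 units in the ASO-NSC mice and 8.54, 8.77, 8.52, 8.73 and 8.998 in the ASO-Veh mice, in the same order. It measured 8.98, 8.88, 9.11, 8.99 and 8.78 in the WT-NSC mice and 8.81, 9.38, 9.07, 9.01 and 8.86 in the WT-Veh mice. Only ASO-NSC mouse 75 and ASO-Veh mouse 68 reached the WT range. The difference was -0.35 log2 units, a ratio of 0.787 (SE 0.09, limma's adjusted p = 0.996).

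Arc followed the same mice. It measured 9.69, 9.82, 9.15, 9.52 and 9.07 log2 units in the ASO-NSC mice and 9.55, 9.79, 9.47, 9.61 and 9.92 in the ASO-Veh mice, against 9.92, 9.79, 9.96, 9.82 and 9.73 in the WT-NSC mice and 9.79, 10.37, 9.92, 9.83 and 9.90 in the WT-Veh mice. The ASO mice 75, 45 and 68 lay within the WT range and the other 7 below it. The difference was -0.30 log2 units, a ratio of 0.811 (SE 0.09, limma's adjusted p = 0.996).

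Nr4a1 had the difference of greatest size, -0.52 log2 units, a ratio of 0.699, with the widest error (SE 0.16, 95% interval -0.85 to -0.18, limma's adjusted p = 0.996). It measured 9.40, 9.92, 8.51, 9.41 and 9.58 log2 units in the ASO-NSC mice and 9.28, 9.79, 8.84, 9.64 and 9.92 in the ASO-Veh mice. In the WT-NSC mice it measured 9.95, 9.92, 10.09, 9.79 and 9.72, and in the WT-Veh mice 9.66, 10.44, 10.07, 9.75 and 9.70. ASO-NSC mouse 56 and ASO-Veh mouse 46 stood well below the rest, and 7 of the 10 ASO mice lay below every WT mouse.

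The products of the AP-1 genes pair with each other to bind DNA. Of these genes, Fos and Fosb overlapped more between genotypes than Npas4, Egr1, Arc and Nr4a1. Fos measured 7.07, 7.38, 6.51, 7.16 and 7.43 log2 units in the ASO-NSC mice and 6.76, 7.16, 6.75, 7.36 and 7.14 in the ASO-Veh mice, against 7.46, 7.55, 7.75, 7.07 and 7.18 in the WT-NSC mice and 7.60, 7.48, 7.19, 7.06 and 7.11 in the WT-Veh mice. Only 3 ASO mice (56, 42 and 46) lay below every WT mouse, and the difference was -0.32 log2 units (SE 0.12, limma's adjusted p = 0.996). Junb had a median of 8.23 log2 units in ASO mice (7.87 to 8.47) and of 8.58 in WT mice (8.26 to 8.75), a difference of -0.28 (SE 0.09). In Junb 6 ASO mice lay below every WT mouse and 6 WT mice above every ASO mouse. Fosb, whose shortened product builds up in the striatum with repeated stimulation, had a median of 7.32 in ASO mice (6.96 to 7.61) and of 7.44 in WT mice (7.22 to 7.77), and its interval reached 0 (difference -0.20, 95% interval -0.40 to 0.00).

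Egr2, a relative of Egr1 known also from myelinating glia of nerves, had a median of 7.31 log2 units in ASO mice (7.01 to 7.60) and of 7.54 in WT mice (7.42 to 7.92), a difference of -0.25 (SE 0.08), with 6 ASO mice below every WT mouse. Dusp1 had a median of 8.84 in ASO mice (8.33 to 9.22) and of 8.95 in WT mice (8.33 to 9.18), with a difference of -0.12 (95% interval -0.34 to 0.09). Ier2 was the only 1 of the 10 with a higher mean in ASO mice, by 0.09 log2 units (95% interval -0.08 to 0.26), with a median of 5.00 in ASO mice (4.80 to 5.15) and of 4.89 in WT mice (4.56 to 5.32). For these 5 genes (Junb, Fosb, Egr2, Dusp1 and Ier2) limma's adjusted p was 0.996.

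**Figure D2:**
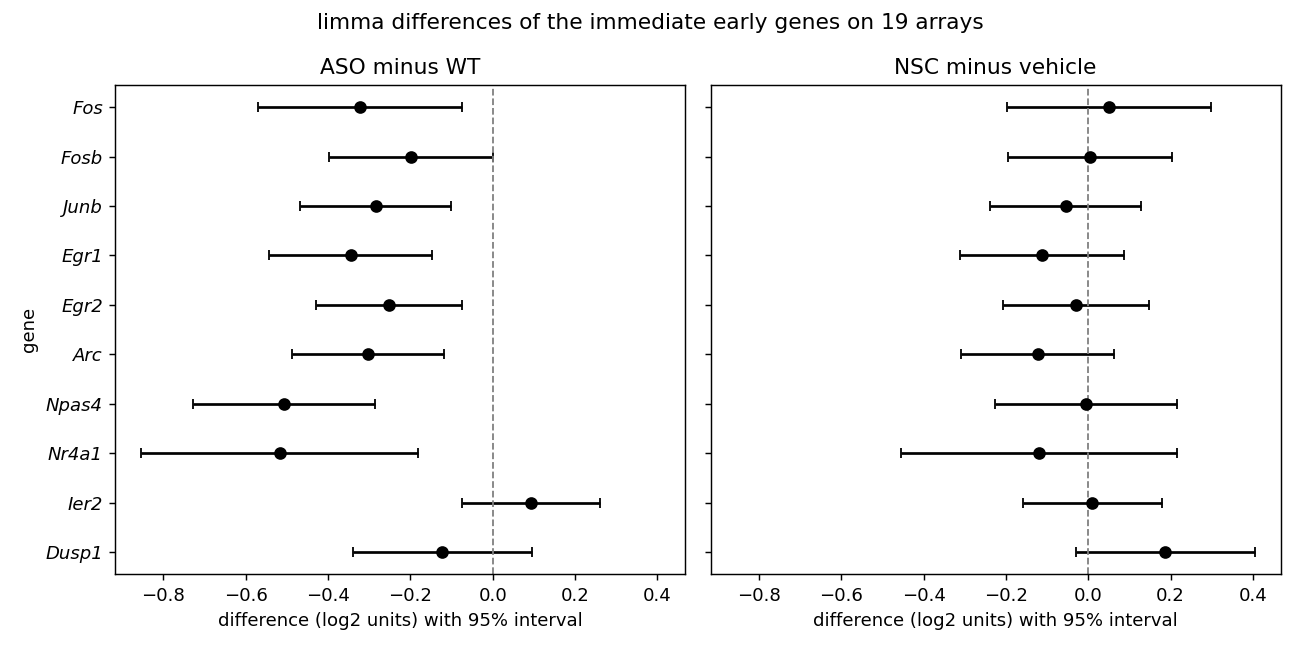
limma differences in log2 units with 95% intervals (x axis) of the 10 genes (y axis) on 19 arrays, for ASO minus WT over both treatments and for NSC minus vehicle over both genotypes. The intervals of 7 genes lie below 0 for ASO minus WT, and all 10 intervals cover 0 for NSC minus vehicle.

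The difference between genotypes was also taken in the vehicle mice and in the grafted mice, which share no mouse. Both differences come from 1 fit with a shared spread and a shared sex term, so they are not fully separate. Between ASO-NSC and WT-NSC mice, all 10 genes had lower means in ASO-NSC, with a median difference of -0.32 log2 units, and 7 were lower at an unadjusted p under 0.05, against 1.61% of all genes, and none higher, against 1.44%. That count of 7 was 0 without ASO-NSC mouse 56, 3 without WT-NSC mouse 74, and 4 without WT-NSC mouse 53, without WT-NSC mouse 54, with sex taken from the sex-linked genes or with litter held fixed. Without mouse 56, 9 of the 10 still had lower means. Between ASO-Veh and WT-Veh mice, 9 had lower means in ASO-Veh, with a median of -0.26, and 4 (Egr1, Arc, Npas4 and Nr4a1) were lower at an unadjusted p under 0.05, against 2.79%, and none higher, against 2.02%. That count of 4 was 1 without ASO-Veh mouse 46, without WT-Veh mouse 62 or with litter held fixed, 2 without ASO-Veh mouse 42 or without the 5 arrays whose sex-linked genes differ, and 6 without ASO-Veh mouse 45 or WT-Veh mouse 66. In ASO-Veh mice 1 of the 10 was higher at that p without those 5 arrays, without WT-Veh mouse 61 or without WT-NSC mouse 54 or 74. None was called in either, where limma called 0.00451% of all genes for the grafted and 0% for the vehicle mice. Npas4 differed by -0.37 (SE 0.15) between ASO-NSC and WT-NSC mice and by -0.65 (SE 0.15) between ASO-Veh and WT-Veh mice. The change of the graft difference with genotype, tested as an interaction, was 0.28 log2 units for Npas4 (95% interval -0.17 to 0.73, limma's adjusted p = 1). No gene of all 22180 was called for the interaction (0%), and none of the 10 had an unadjusted p under 0.05, against 2.2% of all genes with a positive and 1.43% with a negative interaction. With litter held fixed, 1 of the 10 had a positive interaction at that p. Without the 5 arrays whose sex-linked genes differ, or without WT-NSC mouse 54, 1 had a negative interaction.

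ASO-NSC and WT-Veh mice were also compared, as the study did. Both groups were already part of the comparisons above, so the counts here are not independent of those. Of the 10 genes, 8 had lower means in ASO-NSC mice and 6 were lower at an unadjusted p under 0.05, against 6.29% of all genes, and none higher, against 7.37%. The count of 6 was 3 without ASO-NSC mouse 56, 4 without the 5 arrays whose sex-linked genes differ and 1 with litter held fixed, where 6 of the 10 had lower means. In none of the 10 did all ASO-NSC mice lie below or above all WT-Veh mice, which held for 1.3% (below) and 1.79% (above) of all genes. The median difference was -0.31 log2 units, and none was called, against 0.0135% of all genes. Egr1 differed by -0.46 (SE 0.14), Arc by -0.43 (SE 0.13) and Npas4 by -0.51 (SE 0.15).

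Within litters, the means of ASO mice lay below those of WT littermates in 9 of the 10 genes in litters 1, 3, 4 and 6, with median differences of -0.33, -0.42, -0.16 and -0.47 log2 units. These rest on 2 ASO against 2 WT mice in litters 1 and 4, on 2 against 1 in litter 3 and on 3 against 2 in litter 6. In litter 5, with ASO-Veh mouse 68 alone against 3 WT-Veh mice, only 3 of the 10 were lower and the median difference was 0.03. Npas4 had a lower mean in the ASO mice of each of the 5 litters, with differences of -1.11, -0.33, -0.21, -0.37 and -0.67 log2 units in litters 1, 3, 4, 5 and 6. In litter 3 the 2 ASO mice had received vehicle and the WT mouse NSCs, so genotype and treatment cannot be told apart there.

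Over both genotypes together, males, as the sex-linked genes gave it, had lower levels than females. The mean of the 10 genes, each scaled to an SD of 1 over the 20 mice, was -0.49 ± 0.81 SD units in 7 males and 0.27 ± 0.59 in 13 females, and ASO mice made up 5 of the 7 males and 5 of the 13 females. The 2 WT males, at 0.39 (mouse 58) and 0.31 (mouse 64), lay among the WT females, at -0.235 to 1.44. ASO males ran from -1.89 to -0.03 and ASO females from -0.73 to 0.49. Within the males, 5 ASO mice against 2 WT mice, all 10 genes were lower in ASO mice with a median of -0.35 log2 units. Within the females, 5 ASO against 8 WT mice, 9 were lower with a median of -0.17. The part of sex in the genotype difference was not tested beyond these values and the alternative fits.

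**Figure D3:**
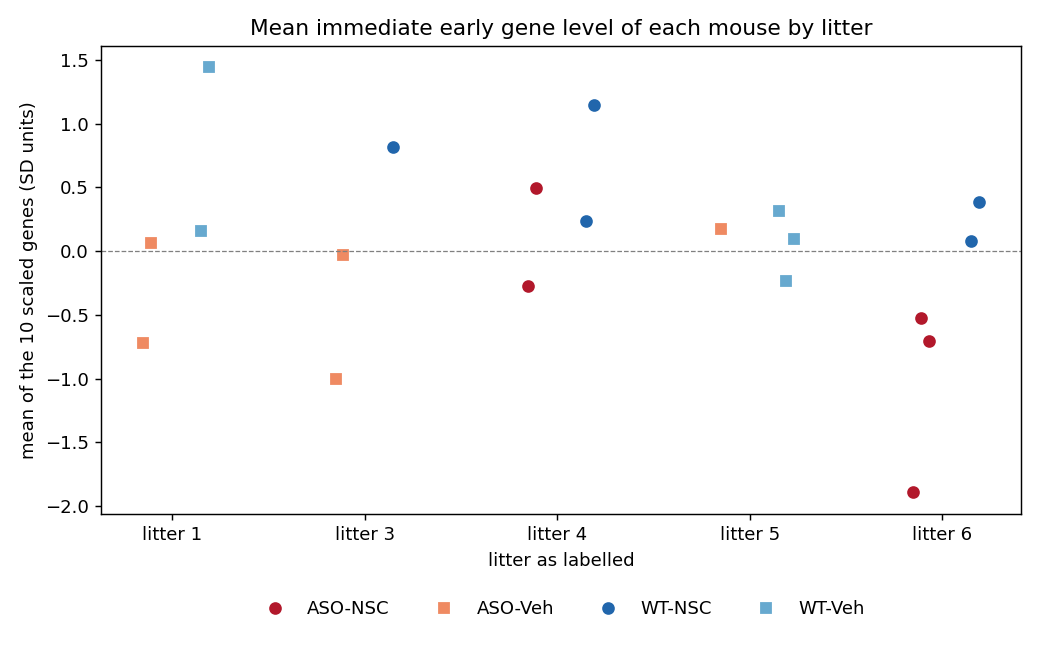
Mean of the 10 immediate early genes, each scaled to an SD of 1 over the 20 mice (y axis, SD units), for each mouse by labelled litter (x axis), with ASO mice left of WT mice in each litter. ASO-NSC mouse 56 of litter 6 is lowest (-1.89), WT-Veh mouse 62 of litter 1 is highest (1.44), and in litter 5 the ASO mouse lies among the WT mice.

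The comparison of grafted with vehicle mice asked whether gene levels differ in the striatum that received NSCs. The grafted cells were mouse cells and the RNA came from bulk tissue. Transcripts of graft and host thus could not be told apart. None of the 10 genes was called in ASO mice, in WT mice or over both, where limma called 0.00902%, 0.433% and 1.15% of all genes, and none had an unadjusted p under 0.05 in any of the 3. Without the 5 arrays whose sex-linked genes differ, 3 of the 10 were higher at that p in WT-NSC against WT-Veh mice, and 2 over both. In WT mice 1 was higher with no sex term, with sex taken from the sex-linked genes, and without mouse 54, 56, 62 or 75. Over both genotypes 1 was higher on all 20 arrays and without mouse 56 or 62. In the main fit, 5.56% of all genes were higher and 3.32% lower at that p in ASO-NSC against ASO-Veh mice, 7.04% and 6.48% in WT-NSC against WT-Veh mice, and 10.9% and 7.76% over both. Such shares are not given for the alternative fits. In none of the 10 did the grafted mice all lie above or all below the vehicle mice of their genotype, which held for 2.51% (above) and 0.658% (below) of all genes in ASO mice and for 1.24% and 1.03% in WT mice. Between ASO-NSC and ASO-Veh mice, 7 of the 10 had lower means, with a median difference of -0.10 log2 units, against 0.00 over all genes. Without ASO-NSC mouse 56 only 2 of the 10 had lower means, as with litter held fixed, and 4 without the 5 arrays whose sex-linked genes differ. Between WT-NSC and WT-Veh mice, 6 had lower means, with a median of -0.01, and 3 had them without WT-Veh mouse 62, 4 without WT-NSC mouse 70 or the 5 arrays and 1 with litter held fixed. Over both genotypes the median was -0.02. The intervals of single genes come from a fit without litter and do not bound what litter could add. With litter held fixed, the WT-NSC minus WT-Veh difference was 0.52 for Nr4a1, above its interval of -0.54 to 0.39. For Junb it was 0.42, above its interval of -0.27 to 0.24.

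Dusp1 came closest to a graft difference. It measured 8.81, 9.22, 8.33, 8.93 and 9.15 log2 units in ASO-NSC mice, against 8.61, 8.84, 8.53, 8.83 and 8.88 in ASO-Veh mice, and the groups overlapped. In WT-NSC mice it measured 9.12, 9.001, 9.18, 8.90 and 9.04, against 8.77, 9.11, 8.71, 8.33 and 8.83 in WT-Veh mice, where only WT-Veh mouse 62 reached the WT-NSC range. The difference was 0.28 (95% interval -0.02 to 0.58, limma's adjusted p = 0.396) between WT-NSC and WT-Veh mice and 0.09 (95% interval -0.22 to 0.41) between ASO-NSC and ASO-Veh mice. Over both genotypes it was 0.19 (95% interval -0.03 to 0.40, limma's adjusted p = 0.331).

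For the neuronal activity markers, the intervals over both genotypes were -0.31 to 0.06 log2 units for Arc (difference -0.12), -0.31 to 0.09 for Egr1 (-0.11), -0.20 to 0.30 for Fos (0.05) and -0.23 to 0.22 for Npas4 (-0.01). The interval was widest for Nr4a1, from -0.46 to 0.22. In the WT-NSC group the values were tighter than in the other groups for some genes: the SD of Arc was 0.10 log2 units in WT-NSC mice, against 0.23 in WT-Veh mice, and 0.33 in ASO-NSC mice, against 0.18 in ASO-Veh mice. These spreads rest on 5 mice each and were not tested.

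The levels of the 10 genes varied together from mouse to mouse. ASO-NSC mouse 56 was the lowest of the 20 mice in 6 of the genes and among the lowest 3 in 9, and ASO-Veh mouse 46 was among the lowest 3 in 8. WT-Veh mouse 62 was the highest in 5 genes, and WT-NSC mouse 74 was among the highest 3 in 8. Over the 45 pairs of genes, Pearson's r across the 20 mice had a median of 0.60 (Spearman's rho 0.52), and 40 pairs were above 0. The mice share litters and groups, so these are descriptions.

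Egr1 and Arc ran closest, with r = 0.97, and Egr1 with Egr2 had r = 0.90 and Nr4a1 with Egr1 0.89. Ier2 stood apart, with a median r of -0.02 over its 9 pairs, of which 4 were above 0. With group means removed, 8 of its 9 pairs were above 0, with a median of 0.138 and r of 0.525 with Fos and 0.474 with Dusp1. The 36 pairs without Ier2 were all above 0, with a median of 0.665. After the mean of each group was removed the 36 pairs had a median of 0.587, and after litter means were removed as well it was 0.587 with 35 pairs above 0. Leaving out ASO-NSC mouse 59 gave a median of 0.690, and leaving out the 5 arrays whose sex-linked genes differ gave 0.692.

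Npas4 was tied less closely to the others, and with Fos and Nr4a1 the tie was nearly gone once group means were removed. Its r with the mean of the other 9 genes was 0.517, the lowest after Ier2 (0.022), against 0.914 for Nr4a1 and 0.877 for Egr1. With group means removed, r between Npas4 and Fos was 0.04 and between Npas4 and Nr4a1 0.05, while Npas4 with Arc kept 0.51 and with Egr1 0.45. Fos and Dusp1, by contrast, had r = 0.77 across all mice and 0.81 with group means removed.

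**Figure D4:**
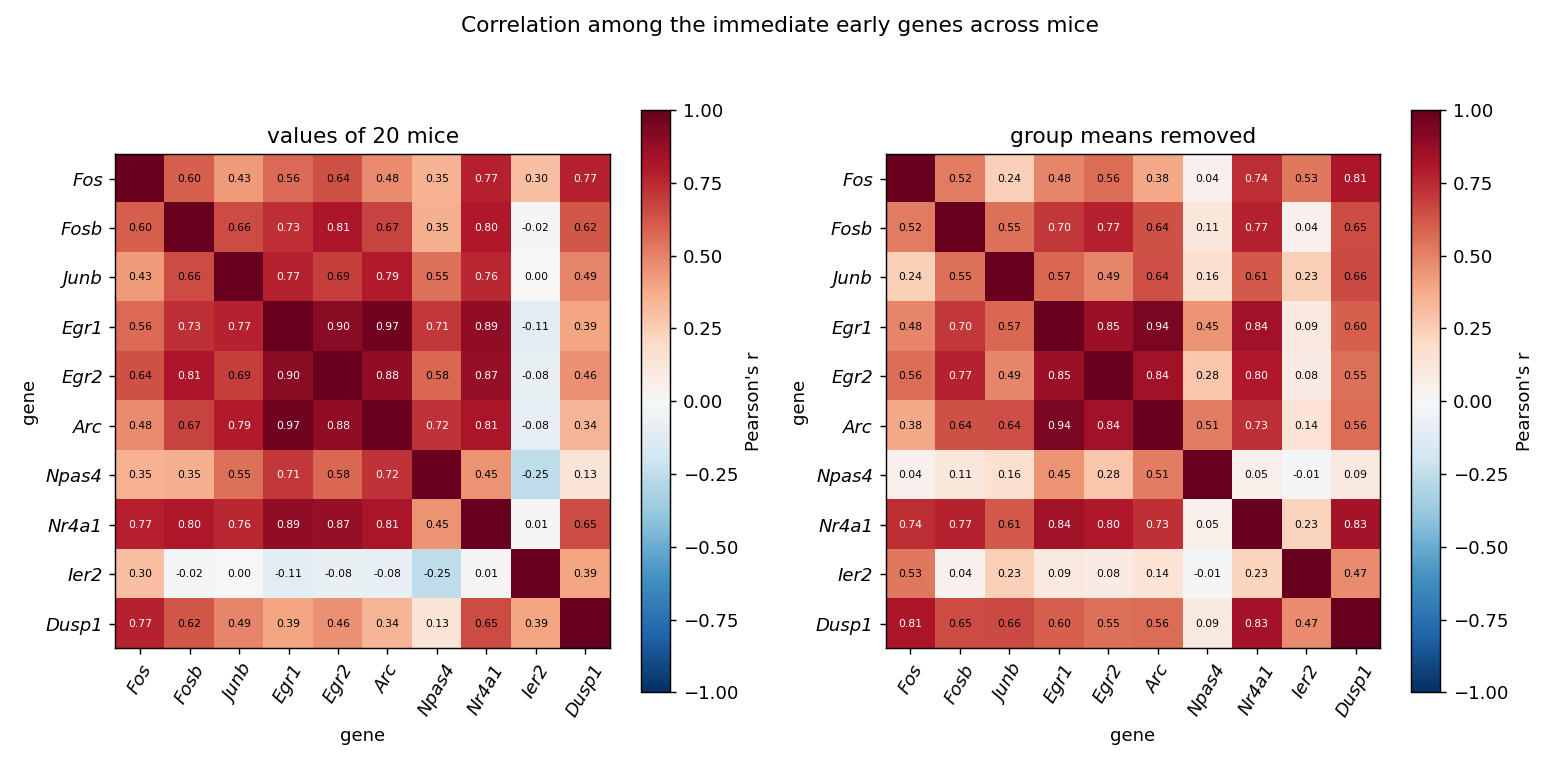
Pearson's r between each pair of the 10 immediate early genes (both axes) across 20 mice, from the values as they stand and after the mean of each group was removed, on a colour scale from -1 (blue) to 1 (red). Egr1, Egr2, Arc and Nr4a1 form the darkest block (r of 0.81 to 0.97), and the row of Ier2 is palest in the values as they stand.

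The genes most like the 10 were ranked by r with the mean of the 10 scaled genes over the 20 mice. Nr4a3, the sister receptor of Nr4a1, came first with r = 0.916, Fosl2, a further AP-1 partner, second with 0.857, and Dusp6, a phosphatase of ERK, came next with 0.821. The next were Tubd1 (0.800), a tubulin, the long non-coding RNA D630033O11Rik (0.788), Zfp384 (0.782), Ahr (0.774), the aryl hydrocarbon receptor, and Mier2 (0.760). Brap (0.752), Plec (0.744), Abcc1 (0.740) and Camk2n1 (0.740), an inhibitor of CaM kinase II, completed the 12. Of these, 5 (Nr4a3, Fosl2, Dusp6, D630033O11Rik and Brap) were also among the first 12 once group means were removed.

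Nr4a3 measured 7.68, 8.09, 6.97, 7.36 and 7.61 log2 units in ASO-NSC mice and 7.51, 7.73, 7.42, 7.93 and 7.85 in ASO-Veh mice, against 8.31, 7.70, 8.09, 8.10 and 7.87 in WT-NSC mice and 7.84, 8.56, 8.24, 7.85 and 7.93 in WT-Veh mice, in the order of mice given for Npas4. Mouse 56 was again lowest and mouse 62 highest. Its difference between ASO and WT mice was -0.45 log2 units (SE 0.13, limma's adjusted p = 0.996).

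**Figure D5:**
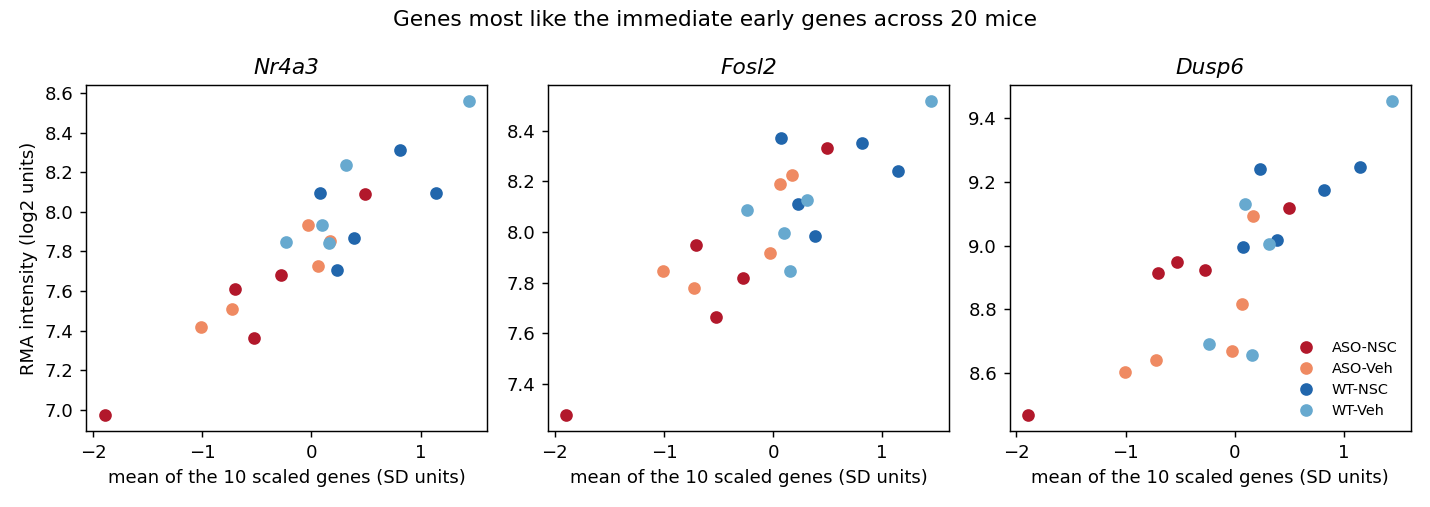
Log2 RMA intensity of Nr4a3, Fosl2 and Dusp6 (y axes) against the mean of the 10 scaled immediate early genes (x axis, SD units) in 20 mice, coloured by group. The 3 genes have r of 0.916, 0.857 and 0.821, and ASO-NSC mouse 56 (-1.89 on the x axis) lies at the lower left in each.

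The list of 17 other rapid transcription factors, 16 of them measured, followed the 10 genes in part. In 5 of the 16 (Nr4a3, Fosl2, Egr4, Klf10 and Egr3, named after their values were seen) r with the mean of the 10 was above 0.5, which held for 2.44% of all other genes. Myc, a growth-promoting factor, was the only member called, with WT-NSC mice above WT-Veh mice by 0.32 log2 units (SE 0.07, limma's adjusted p = 0.0464) and over both genotypes by 0.22 (SE 0.05, adjusted p = 0.0347). It measured 6.94, 7.20, 7.22, 7.22 and 7.13 log2 units in WT-NSC mice and 6.88, 6.73, 6.98, 6.71 and 6.85 in WT-Veh mice, and only WT-NSC mouse 53, the one from litter 3, fell within the WT-Veh range. In ASO-NSC mice Myc measured 7.04, 7.14, 6.93, 7.15 and 7.12, against 6.98, 6.91, 7.00, 6.92 and 6.85 in ASO-Veh mice (difference 0.13, adjusted p = 0.6). A fit that held litter fixed gave Myc a WT difference of 0.14 (adjusted p = 0.988) and one over both genotypes of 0.0171 (adjusted p = 1).

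Myc did not follow the 10 genes by genotype, with a difference between ASO and WT mice of 0.01 log2 units. The call in WT mice was lost in 20 of 30 alternative fits and that over both genotypes in 15 of 30. Leaving out single mice gave differences of 0.29 to 0.37 between WT-NSC and WT-Veh mice and of 0.21 to 0.25 over both genotypes. The call in WT mice was lost without ASO-NSC mouse 57, 73 or 75, without WT-NSC mouse 54, 58, 70 or 74, without ASO-Veh mouse 42, 45, 46, 47 or 68, and without WT-Veh mouse 61, 62 or 66, at adjusted p-values of 0.0506 (without mouse 75) to 0.174 (without mouse 66).

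Of 23 rapid feedback and signalling genes, 21 were measured and 1 was called for genotype. Tiparp, a mono-ADP-ribosylating enzyme that is rapidly induced and that represses the aryl hydrocarbon receptor, was lower in ASO than in WT mice, with a difference of -0.55 log2 units, a ratio of 0.683 (SE 0.07, 95% interval -0.70 to -0.40, limma's adjusted p = 0.00488). It measured 7.97, 7.82, 7.81, 8.07 and 8.05 log2 units in ASO-NSC mice and 7.67, 7.89, 7.55, 7.82 and 7.90 in ASO-Veh mice, against 8.47, 8.27, 8.52, 8.13 and 8.58 in WT-NSC mice and 8.22, 8.44, 8.53, 8.21 and 8.53 in WT-Veh mice. All 10 ASO mice lay below all 10 WT mice, and Tiparp was the only 1 of the 22180 genes for which this held (0.00451%), with none in the other direction.

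The difference in Tiparp was -0.48 log2 units between ASO-NSC and WT-NSC mice and -0.63 between ASO-Veh and WT-Veh mice. Its r with the mean of the 10 genes was 0.665, and 0.467 with group means removed. The call was lost without the 5 arrays whose sex-linked genes differ (-0.63, adjusted p = 0.051) and in the fit that held litter fixed (-0.49, adjusted p = 0.801), and it held without any single mouse, with differences of -0.58 to -0.52.

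In the same list 9 of the 21 genes had r above 0.5 with the mean of the 10 genes, against 2.44% of all other genes. In ASO mice 5 of the 21 were lower at an unadjusted p under 0.05, against 2.34% of all genes (Tiparp, Dusp5, Dusp6, Dusp14 and Spry2, named after their values were seen). The genes other than Tiparp had limma's adjusted p = 0.996. Dusp5, Dusp6 and Dusp14 are phosphatases of MAP kinases and Spry2 an inhibitor of growth factor receptors, and they differed by -0.22, -0.25, -0.22 and -0.15 log2 units.

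Of the 14 activity-induced effectors none was called in any comparison, and 3 (Homer1, Plk2 and Ptgs2, named after their values were seen) had r above 0.5 with the mean of the 10 genes, against 2.44% of all other genes. Nrn1, a secreted factor for neurites, differed by 0.77 log2 units between WT-NSC and WT-Veh mice (SE 0.36, limma's adjusted p = 0.362) and by 0.15 between ASO-NSC and ASO-Veh mice (adjusted p = 0.921). Vgf, a secreted neuropeptide precursor, differed by 0.35 in WT mice (SE 0.16, adjusted p = 0.335) and by -0.19 in ASO mice (adjusted p = 0.726), with an interaction of -0.54 (limma's adjusted p = 1). Pcsk1, which cleaves neuropeptides, differed by 0.32 in both genotypes (adjusted p = 0.63 in ASO mice and 0.483 in WT mice), and Plk3, a kinase, by 0.14 in ASO mice and 0.06 in WT mice.

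The upstream activators, which carry the signal to the immediate early genes, were 16 of 19 measured and none was called. Creb1 differed by 0.13 log2 units between ASO-NSC and ASO-Veh mice and by 0.12 between WT-NSC and WT-Veh mice (limma's adjusted p = 0.0927 over both). Elk1, a cofactor of serum response factor, differed by -0.16 in ASO mice and -0.04 in WT mice, Mrtfa, a further cofactor, by -0.17 and -0.10, and Crebbp, the acetyltransferase that CREB recruits, by -0.07 and -0.11. The median genotype difference of the list was -0.02, and 1 of the 16, Crtc1, had r above 0.5 with the mean of the 10 genes (0.543), named after its value was seen.

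Glucocorticoid-induced genes were listed since handling and stress move them along with immediate early genes. None of the 12 was called, none had r above 0.5 with the mean of the 10, and the median r was -0.13. The r of single genes ran from -0.591 for Zbtb16 to 0.470 for Cdkn1a, named after their values were seen. Zbtb16 stood at rank 22115 of the 22170 other genes, and had -0.582 with group means removed. Tsc22d3, an anti-inflammatory leucine zipper protein, differed by 0.30 log2 units between ASO-NSC and ASO-Veh mice and by 0.16 between WT-NSC and WT-Veh mice (adjusted p = 0.0593 over both), and Nfkbia, the inhibitor of NF-κB, by 0.20 and 0.22 (adjusted p = 0.0577 over both). Pdk4, which limits glucose oxidation, differed by 0.10 and 0.20, and Mt1, a metallothionein, by -0.14 and 0.15. For genotype the list had a median of 0.04 log2 units, with no gene at an unadjusted p under 0.05.

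No gene of the 7 cell type marker lists had r above 0.5 with the mean of the 10 genes. The median r of single genes was 0.352 for spiny projection neuron markers and 0.314 for cortical neuron markers, against 0.371 for the other rapid transcription factors, 0.304 for the rapid feedback genes and 0.145 for the activity-induced effectors. The mean of the 9 spiny projection neuron markers measured, out of 12, had r = 0.38, that of 9 cortical neuron markers 0.32 and that of 6 astrocyte markers -0.34. All 9 spiny projection neuron markers had lower means in ASO than in WT mice, against 53.9% of all genes, with a median of -0.07 log2 units and none at an unadjusted p under 0.05. All 5 oligodendrocyte markers were lower as well (median -0.04), and all 6 astrocyte markers were higher (median 0.07). The list means of the spiny projection neuron markers ran from 10.20 to 11.03 log2 units in ASO-NSC mice and 10.82 to 11.24 in ASO-Veh mice, against 10.79 to 11.21 in WT-NSC mice and 10.94 to 11.29 in WT-Veh mice. The RNA integrity number had r = 0.20 with the mean of the 10 genes and the array median -0.12. The part of any of these in the genotype difference was not tested.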

How the data were processed

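Total RNA of 20 striata was measured on Affymetrix Mouse Gene 2.0 ST arrays, and the deposited table gives log2 intensities, computed by the authors with the RMA method of oligo 1.34.2 (background correction, normalization across arrays, summary per transcript cluster). RMA sets all arrays to 1 distribution, so a shift of all genes would not be seen. Arrays carry no read depth, so precision depends on the mice per group. Of 41345 rows, 23521 named 1 gene symbol, giving 22180 genes; 1082 genes had more than 1 row and were represented by the row that varied most by interquartile range.

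Groups, litter, sex and RNA integrity came from the labels. Each mouse is 1 replicate. limma 3.58.1 (R 4.3.3) was fitted to all genes on 19 arrays, with group and labelled sex as terms, 8 contrasts and Benjamini-Hochberg adjustment over all genes, and a gene was called at an adjusted p under 0.05. The code was tested on simulated data. Values of single mice carry no sex adjustment. Descriptions used Python 3.11.15 with pandas 2.3.3, and plots matplotlib 3.10.9. Promoters come from RefSeq (GRCm38.p6), matched by symbol.

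The 10 members and the gene lists were chosen with earlier results of these data known. Named genes are the members, list genes that were called or otherwise the 4 with the largest moderated statistic for the graft, and the 12 genes most like the members. The alternatives used all 20 arrays, left the sex term out, took sex from the sex-linked genes, left out 5 arrays, added RNA integrity or litter, changed the prior, averaged probe sets, filtered at a mean of 5 log2 units, centred arrays on their median or left out each mouse. Those for Tiparp and Myc were added after seeing the data. Shares of all genes at an unadjusted p are those of the main fit.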

Additional observations from a re-analysis of the deposited data

Results flagged for a closer look

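Arc in WT-Veh mouse 62, at 10.37 log2 units, stood apart from the other WT-Veh mice, whose values lay between 9.79 and 9.92. The gap exceeded Dixon's 95% critical value for 5 samples, as it did in 1 of 44 groups of values examined, where chance flags about 1 in 20. The same mouse was the highest of all 20 in 5 of the 10 genes, and without it the median ASO minus WT difference of the 10 genes was -0.25 log2 units. Its array is also among those whose sex-linked genes differ from the labelled sex.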

How the results depend on the processing

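None of the 10 genes was called in any comparison under any of the 30 alternatives. Of all genes, these fits called 0 (without the 5 arrays) to 3 (without WT-NSC mouse 54 or 58) for genotype over both treatments. For the graft over both genotypes they called 2 (litter fixed) to 1004 (without WT-Veh mouse 67). The median ASO minus WT difference of the 10 lay between -0.34 and -0.23 log2 units in all 30 alternatives, with 9 genes lower and Ier2 not, or not in the fit, since its mean is below 5 log2 units. From 5 (litter as a fixed block) to 8 genes were lower at an unadjusted p under 0.05, and the adjusted p of Npas4 ran from 0.381 (without ASO-Veh mouse 46) to 1. Of the graft differences, none of which was called, several changed sign. With litter as a fixed block, which is nearly confounded with the graft, the median difference was 0.16 in ASO mice, 0.23 in WT mice and 0.19 over both, and -0.0362 between ASO-NSC and WT-Veh mice. In that fit the ASO-NSC minus ASO-Veh differences were 0.14 for Arc, 0.0279 for Egr1, 0.17 for Egr2, 0.31 for Fosb, 0.25 for Junb, -0.11 for Npas4 and 0.17 for Nr4a1, and the WT-NSC minus WT-Veh differences 0.23 for Arc, 0.18 for Egr1, 0.22 for Egr2, 0.42 for Junb and 0.52 for Nr4a1. Without the 5 arrays whose sex-linked genes differ, they were 0.10 for Egr2, 0.0435 for Fosb and 0.0250 for Nr4a1 in ASO mice and 0.0788 for Egr2 and 0.0453 for Nr4a1 in WT mice. Fos in ASO mice was -0.0030 with no sex term and -0.0184 with arrays centred on their median, and Egr2 in WT mice was 0.0182 with no sex term and with sex taken from the sex-linked genes. Leaving out 1 mouse at a time gave, in ASO mice, -0.19 to 0.0091 for Arc, -0.0438 to 0.25 for Dusp1, -0.23 to 0.0145 for Egr1, -0.13 to 0.0353 for Egr2, -0.0898 to 0.17 for Fos, -0.19 to 0.0098 for Junb, -0.0126 to 0.22 for Npas4 and -0.36 to 0.0736 for Nr4a1. In WT mice it gave -0.0820 to 0.0827 for Egr2, -0.0124 to 0.18 for Fos, -0.10 to 0.0394 for Junb and -0.18 to 0.0690 for Nr4a1. The cause of these changes was not tested. Mouse numbers are not shared between groups and paired no samples. Litter joined the genotypes, and was fitted as a block. As a random block, litter had a correlation of -0.009.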
